A study of Mus musculus with 6 samples.

Results

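The tight junction strands of the mouse anterior prostate were followed through 10 genes, the claudins Cldn1, Cldn2, Cldn3, Cldn4, Cldn7, Cldn8, Cldn10, Cldn12 and Cldn23 and the gene of occludin, Ocln. They were taken from the expression tables by gene symbol and make up 10 of the 55076 rows of each table. RNA-seq was done on total RNA of the anterior prostate of male mice at 20 weeks of age, with 3 OEx and 3 Ctrl samples, each taken here as 1 mouse. OEx mice (genotype label N1ICD-Oex) carried Pbsn-Cre and 1 Rosa26 N1ICD allele, so that the intracellular domain of Notch1 was expressed in the cells in which the probasin promoter drives Cre, the prostate epithelium. Ctrl mice are labelled wild type. By the methods of the study, they carried the same Rosa26 N1ICD/+ allele without Pbsn-Cre. Per the labels, secretions were cleaned from the tissue for the RNA. The values come from whole tissue, a mixture of epithelium, stroma, vessels and other cells. In such bulk samples, fewer cells of a type and less RNA per cell cannot be told apart.

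Claudins are small membrane proteins that polymerise into the strands that seal neighbouring epithelial cells at the tight junction. Their extracellular loops set which ions pass between the cells: some members close the path and others form channels for cations, anions or water. Occludin, a protein of the MARVEL family, lies in the same strands and takes part in their regulation, and the zonula occludens proteins tie the strands to the actin cytoskeleton. In the prostate, luminal cells joined by these junctions separate the secretion in the lumen from the basal cells and the stroma.

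The libraries held between 14762182 and 18650961 recovered reads each. The targeted gene, Notch1, reached 41.9, 47.6 and 78.9 FPKM in OEx, against 5.18, 5.55 and 3.34 FPKM in Ctrl, as the labels say. The markers of prostate luminal cells were detected in all 6 mice. The Ctrl libraries were far more concentrated on a few secretory transcripts, with 14.3% to 22.0% of the reads on the most abundant gene in Ctrl and at most 1.12% in OEx. Ctrl replicate 3 held 1.31% of its reads in 7 seminal vesicle genes, against at most 0.000325% in every other library. Replicates 1 and 2 of each group were close to each other (median chi-square 1.05 in OEx and 1.0 in Ctrl, where counting noise gives 0.455), and pairs with replicate 3 differed by 4.09 to 5.82. These close samples were not identical within counting noise and were kept as separate samples, but whether they came from separate animals, split tissue or pools cannot be told from the labels or from these values. Nothing in the labels ties the samples to separate litters or preparations, so p-values measure the spread between these samples only, which may be technical.

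The genes lie on 7 chromosomes (GRCm38, GENCODE M21). Cldn3 (chr5:134986214-134987472, plus strand) and Cldn4 (chr5:134945119-134946934, minus strand) are intronless neighbours 39280 bases apart. Cldn8 (chr16:88560828-88563183, minus strand) and Cldn23 (chr8:35824712-35826559, minus strand) also have a single exon. Cldn1 lies at chr16:26356642-26371841 (minus strand), Cldn2 at chrX:139800828-139811386 (plus strand), Cldn7 at chr11:69964779-69967885 (plus strand), Cldn10 at chr14:118787908-118875489 (plus strand), Cldn12 at chr5:5489537-5514958 (minus strand) and Ocln at chr13:100496507-100552718 (minus strand). The annotated exon of Cldn3 overlaps that of Wbscr25, which was at 0.0365 to 0.268 FPKM in the 6 mice.

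Promoters of 3 members are shown for orientation: Cldn1, which was called lower, Cldn10, which was called higher, and Cldn4, which was not called and was the most abundant member in Ctrl. They are RefSeq sequences (GRCm38.p6), 5′ to 3′ on the strand of the gene and ending at the base before the annotated start. Cldn10 has 2 annotated starts, and the deposited gene values do not separate the isoforms made from them. The promoter of its downstream start is shown over 250 bases, to take in its match, and the others over 150 bases. The matches counted below come from the same window for every promoter. Capitals mark the core letters bound by RBPJ, the DNA-binding partner of N1ICD (TGGGAA or its reverse complement TTCCCA), and the E-box of the Snail and Zeb repressors (CAGGTG or its reverse complement CACCTG).
Cldn1 (chr16:26371840-26371989, minus strand): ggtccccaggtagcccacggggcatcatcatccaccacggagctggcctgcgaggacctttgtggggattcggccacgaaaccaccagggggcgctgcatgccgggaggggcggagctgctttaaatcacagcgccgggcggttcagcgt
Cldn4 (chr5:134946935-134947084, minus strand): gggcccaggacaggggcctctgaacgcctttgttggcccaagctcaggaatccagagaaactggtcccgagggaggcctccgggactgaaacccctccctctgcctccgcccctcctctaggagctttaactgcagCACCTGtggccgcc
Cldn10, upstream start (chr14:118787721-118787870, plus strand): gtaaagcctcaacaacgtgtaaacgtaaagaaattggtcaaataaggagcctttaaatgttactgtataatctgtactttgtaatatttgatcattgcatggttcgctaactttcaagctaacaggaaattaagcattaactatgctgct
Cldn10, downstream start (chr14:118854700-118854949, plus strand): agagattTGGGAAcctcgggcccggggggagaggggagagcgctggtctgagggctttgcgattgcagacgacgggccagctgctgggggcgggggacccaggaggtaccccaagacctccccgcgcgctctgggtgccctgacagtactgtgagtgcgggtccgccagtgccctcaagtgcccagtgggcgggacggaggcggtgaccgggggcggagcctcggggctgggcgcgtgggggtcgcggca

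Promoters of 8 of the 10 members were matched, 13 in all, from 250 bases before to 50 after each start. Cldn8 and Cldn23 had no entry. The RBPJ letters were found in promoters of 3 members (Cldn2, Cldn7 and Cldn10), and of 28.31% of all genes in the table. The E-box letters were found in promoters of 4 members (Cldn3, Cldn4, Cldn7 and Ocln), and of 22.56% of all genes. In the Cldn10 promoter of the downstream start, the RBPJ letters begin at base -243. In the Cldn4 promoter the E-box letters lie at -14 and at 12, counted from the start. These matches describe letters in a window and not binding.

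In Ctrl, Cldn4 and Cldn3 were by far the most abundant members, with 312 ± 8.09 and 259 ± 18.9 FPKM (SD, n = 3). FPKM is per kilobase of transcript, so levels can be set side by side between genes. Cldn7 and Cldn8 followed at 93.3 ± 3.07 and 93.2 ± 9.11 FPKM, with ranges over the mice that overlapped. Cldn23 (19.7 ± 2.77) and Ocln (17.5 ± 2.34) overlapped as well, as did Cldn12 (5.94 ± 0.567) and Cldn1 (4.74 ± 1.09). Cldn10 was at 2.50 ± 0.958 FPKM and Cldn2 was near the detection limit. In OEx the order changed at several places: Cldn3 stood above Cldn4, Cldn8 above Cldn7, Cldn10 above Cldn23, and Cldn1 below every member except Cldn2. In OEx only Cldn10 and Cldn23 overlapped among neighbours in the order.

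**Figure D1:**
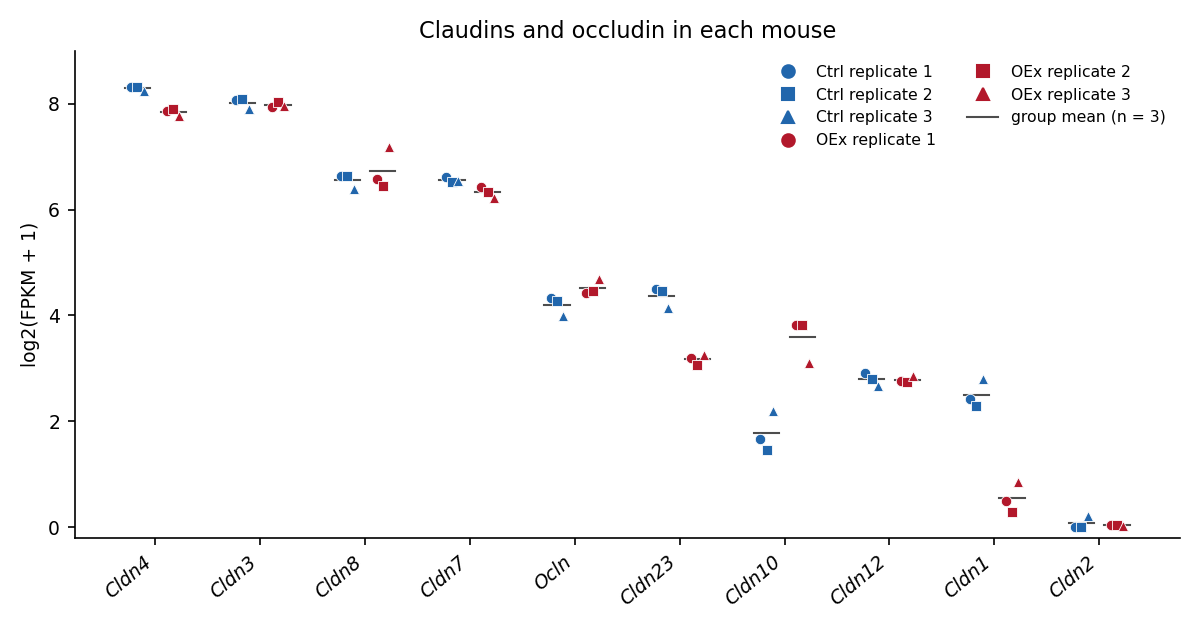
Level of each claudin and of occludin in every mouse, as log2(FPKM + 1), ordered by the mean over the 6 mice. Blue symbols are Ctrl and red symbols OEx, the symbol shape gives the replicate and the short line the mean of 3 mice. Cldn1, Cldn4, Cldn7 and Cldn23 lie lower and Cldn10 and Ocln higher in every OEx mouse than in any Ctrl mouse. The groups overlap for Cldn2, Cldn3, Cldn8 and Cldn12. Of all tested genes, 72.4% had groups that did not overlap.

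OEx and Ctrl were compared gene by gene with limma, on log2(FPKM + 1) values of the 12833 rows that averaged 1 FPKM or more. Genes count as called where the FDR (Benjamini-Hochberg) was under 0.05 and the groups differed by more than 2-fold. On this scale, differences of genes with low FPKM are understated. Of the 9 members that passed the filter, 2 were called lower in OEx (Cldn1 and Cldn23), 1 was called higher (Cldn10) and 6 were not called. These are 22.2% and 11.1% of the 9 members, and over all tested genes 15.7% were called lower and 12.9% higher, so neither share sets the members apart. The groups did not overlap for 6 of the 9 members, where 72.4% of all tested genes had groups that did not overlap (38.9% with OEx lower and 33.4% with OEx higher). The median log2 difference was -0.04 over the 9 members and -0.08 over all genes.

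**Figure D2:**
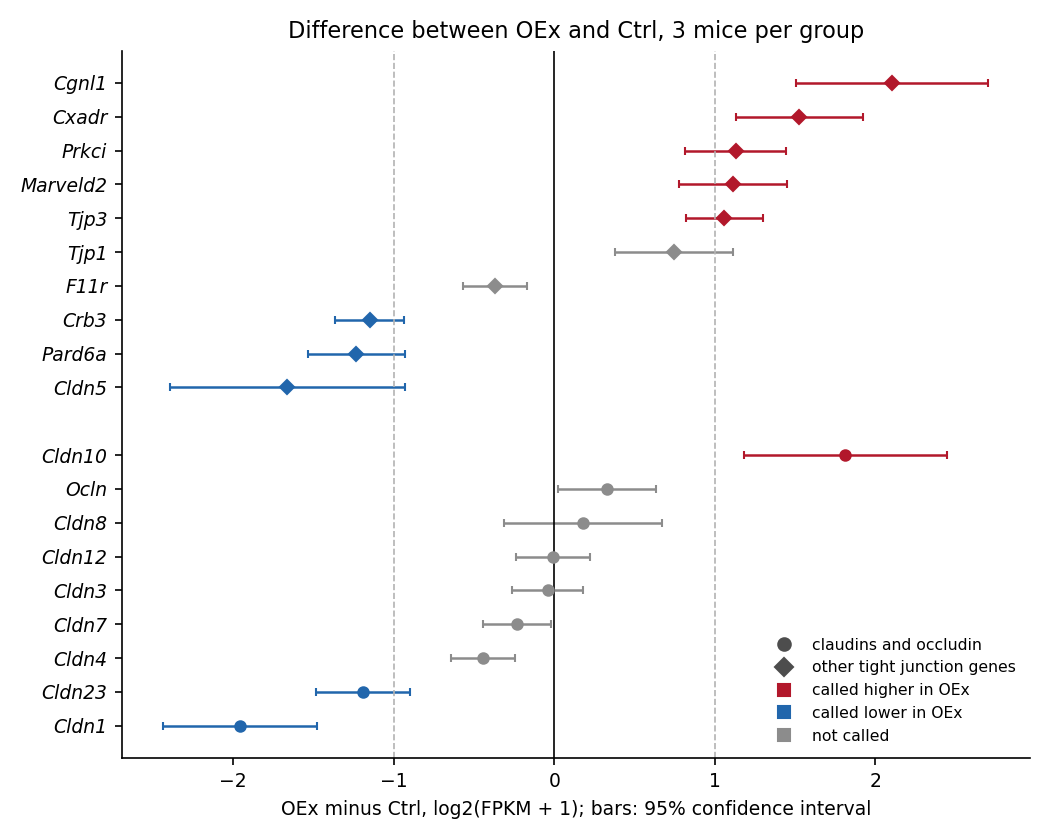
Difference between OEx and Ctrl in log2(FPKM + 1) with its 95% confidence interval (limma, 3 mice per group). Circles are the 9 tested members, diamonds the wider tight junction genes named in the text, and dashed lines mark a 2-fold difference. Cldn1 (-1.96) and Cldn10 (1.81) lie farthest apart among the members.

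Among the claudins with moderate or low levels, Cldn1 and Cldn10 showed the largest differences, in opposite directions. In log2(FPKM + 1), Cldn1 differed more on the deposited scale, and Cldn10 differed more with each of the 3 other scalings and without Ctrl replicate 3. That measure compresses the low values of Cldn1. By the ratio of mean FPKM, Cldn1 differed more (9.86-fold against 4.52-fold), as it did with limma-voom (-3.52 against 2.18). Cldn1 is a barrier-forming claudin best known from the epidermis, and in the prostate it is known as a claudin of basal cells. It was at 0.404, 0.226 and 0.812 FPKM in OEx and at 4.38, 3.88 and 5.97 FPKM in Ctrl. The values rest on 39, 25 and 71 reads in OEx and 265, 243 and 439 reads in Ctrl. Every OEx mouse was far below every Ctrl mouse, and the mean was 9.86-fold lower. On the log2(FPKM + 1) scale Cldn1 fell by 1.96 (SE 0.200, 95% interval -2.44 to -1.48, limma FDR 0.000229). On recovered reads, where low values are not compressed by the pseudocount, limma-voom gave a difference of -3.52. Cldn1 was called lower under every alternative in which it was tested, with -2.11 to -1.81 when 1 mouse was left out.

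The markers of basal epithelial cells moved with Cldn1. All 4 of them (Krt5, Krt14, Krt15 and Trp63) were called lower, and none was at 0 in every mouse. Their summed level was 6.79 to 15.9 FPKM in OEx and 212 to 249 FPKM in Ctrl. Krt5, the keratin of basal cells, was at 1.32, 1.45 and 2.60 FPKM in OEx and at 58.2, 58.3 and 55.2 FPKM in Ctrl. Within OEx, replicate 3 had the highest Cldn1 and the highest basal sum, and within Ctrl the same was true of replicate 3. In OEx replicate 3 most of the sum was Krt15 (3.06, 3.17 and 10.6 FPKM in OEx), and replicates 1 and 2 were in the opposite order to Cldn1. In Ctrl replicate 3, Krt14, Krt15 and Trp63 were highest of the group and Krt5 was lowest. The part of basal cell content in the difference of Cldn1 was not tested. Over the 6 mice, the tested genes most like Cldn1 in log2(FPKM + 1) were Arl4d, Fkbp2 and D730003I15Rik, with Pearson r of 0.999 each. In total 2016 genes had an r over 0.95, so the pattern over the 6 mice is one that many genes share.

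**Figure D3:**
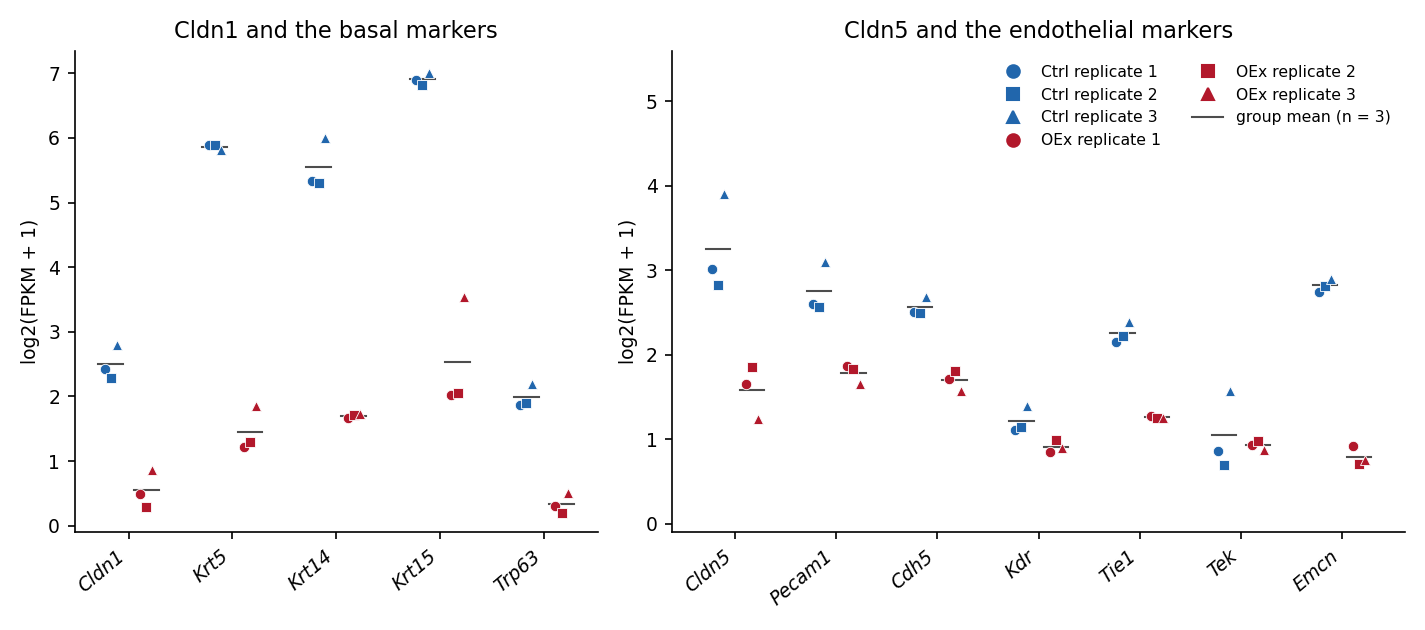
Cldn1 beside the 4 basal epithelial markers and Cldn5 beside the 6 endothelial markers in every mouse, as log2(FPKM + 1), with symbols and mean lines by group and replicate. Cldn1 and all 4 basal markers are lower in every OEx mouse than in any Ctrl mouse, and so are Cldn5 and 5 of the 6 endothelial markers.

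Cldn23, a less studied claudin of epithelial barriers, was the other member that fell. It was at 8.22, 7.36 and 8.48 FPKM in OEx and at 21.7, 21.0 and 16.6 FPKM in Ctrl. The groups were well apart and the mean was 2.46-fold lower. On the log2(FPKM + 1) scale Cldn23 fell by 1.19 (SE 0.122, 95% interval -1.49 to -0.90, limma FDR 0.000233). It was lower under every scaling tried, but by less than 2-fold where the mice were set to equal totals (-0.47), to equal totals without the 20 most abundant genes (-0.87) or to equal upper quartiles (-0.94). Without Ctrl replicate 3, the library with the seminal vesicle reads, the difference was -1.31.

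Cldn10, whose isoforms form channels for anions or for cations, was the only member called higher. It was at 13.1, 13.2 and 7.63 FPKM in OEx and at 2.16, 1.76 and 3.58 FPKM in Ctrl. OEx replicate 3 was the lowest of its group and Ctrl replicate 3 the highest of its group, and the groups still did not overlap. The mean was 4.52-fold higher, and the log2 difference was 1.81 (SE 0.264, 95% interval 1.18 to 2.44, limma FDR 0.00103). It was called higher under every alternative, with 1.66 to 2.05 when 1 mouse was left out and 1.59 (limma FDR 0.0173) when replicates 1 and 2 of each group were averaged, an alternative chosen after seeing the data. The summed fibroblast markers had the same order of mice within each group (250, 252 and 25.1 FPKM in OEx, 54.4, 53.1 and 94.7 FPKM in Ctrl, with replicate 3 last). Replicates 1 and 2 were close to each other, so this order rests mainly on replicate 3. None of the 6 fibroblast markers was called, and none was at 0. Of the urothelial markers, 2 of 4 tested were called higher (Upk1a and Upk3a), and Upk2 was higher but not called. Upk1b went the other way, at 74.7, 79.6 and 95.7 FPKM in OEx and 169, 168 and 134 FPKM in Ctrl, and was not called. The 6 of the list summed to 326 to 552 FPKM in OEx and 150 to 201 FPKM in Ctrl. Most of the sum was Upk1a in OEx (220, 225 and 418 FPKM) and Upk1b in Ctrl. All 6 smooth muscle markers were called lower, with sums of 419 to 505 FPKM in OEx and 1252 to 2671 FPKM in Ctrl. The 5 immune markers summed to 2.10 to 10.5 FPKM in OEx and 1.19 to 3.04 FPKM in Ctrl, and the 1 that was tested was not called. None of these genes was at 0 in every mouse. Replicate 3 was lowest in OEx and highest in Ctrl for the smooth muscle and immune sums too, and the reverse for the urothelial sum. The part of these cells in the difference of Cldn10 was not tested.

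Cldn2, a claudin that forms pores for cations and water, could not be followed. It had 2, 2 and 1 reads in OEx and 0, 0 and 8 reads in Ctrl, and did not pass the filter. The 8 reads were all in Ctrl replicate 3, and the groups overlapped (exact two-sided permutation p = 1, where the smallest possible p is 0.1).

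The abundant members, Cldn3, Cldn4, Cldn7 and Cldn8, are the claudins typical of tight simple epithelia, and none of them was called. Cldn4 seals the path for cations. It was at 232, 238 and 218 FPKM in OEx and at 318, 316 and 303 FPKM in Ctrl. All OEx mice were lower, by 0.44 on the log2 scale (SE 0.0824, 95% interval -0.64 to -0.25, limma FDR 0.00307), which passed the FDR threshold and not the 2-fold threshold. With replicates 1 and 2 of each group averaged, the FDR was 0.0653.

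Cldn3, a sealing claudin encoded next to Cldn4, was at 243, 261 and 249 FPKM in OEx and at 267, 273 and 237 FPKM in Ctrl. The groups overlapped and the log2 difference was -0.04, with a 95% interval of -0.26 to 0.18. The ratio of Cldn4 to Cldn3, which does not depend on how the mice were scaled, was 0.955, 0.910 and 0.876 in OEx and 1.19, 1.16 and 1.28 in Ctrl. This ratio was looked at after the values were seen. It was below 1 in every OEx mouse and above 1 in every Ctrl mouse.

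Cldn7, which also lies along the lateral membrane and binds Epcam, was at 85.2, 79.8 and 73.2 FPKM in OEx and at 96.8, 91.0 and 92.1 FPKM in Ctrl. Every OEx mouse was lower, but the difference of -0.23 (95% interval -0.44 to -0.02) missed the threshold with a limma FDR of 0.0519. Cldn8, which partners with Cldn4 in the kidney collecting duct, was at 94.0, 85.7 and 145 FPKM in OEx and at 98.1, 98.9 and 82.7 FPKM in Ctrl. OEx replicate 3 stood above all other mice and the remaining ones overlapped. The log2 difference was 0.18 (95% interval -0.31 to 0.67) with all mice and -0.05 without OEx replicate 3.

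Cldn12, a claudin without the usual scaffold-binding tail, differed least on the deposited scale. It was at 5.80, 5.67 and 6.25 FPKM in OEx and at 6.48, 5.99 and 5.35 FPKM in Ctrl, with a log2 difference of -0.01 (95% interval -0.24 to 0.22). Ocln was at 20.5, 21.1 and 24.7 FPKM in OEx and at 19.2, 18.4 and 14.8 FPKM in Ctrl. Every OEx mouse was above every Ctrl mouse, by 0.33 (95% interval 0.03 to 0.63), and the limma FDR of 0.0552 missed the threshold.

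The direction of the small differences depended on how the mice were scaled. The deposited FPKM values do not follow library totals: their denominators were 1.22 to 1.35 times the recovered reads in OEx and 0.726 to 0.815 times in Ctrl. With library totals the median over all genes moved from -0.08 to 0.56, and the share of higher genes among all calls moved from 45.0% to 86.9%. That share was 68.3% with totals without the 20 most abundant genes and 63.8% with upper quartiles. With library totals Cldn3 (0.74), Cldn4 (0.34), Cldn7 (0.54) and Cldn12 (0.66) were higher in OEx. Their limma FDRs were 0.0255 or less, with differences under 2-fold. Ocln was called higher with library totals (1.07). Cldn1 (-1.52) and Cldn10 (2.43) kept their calls.

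**Figure D4:**
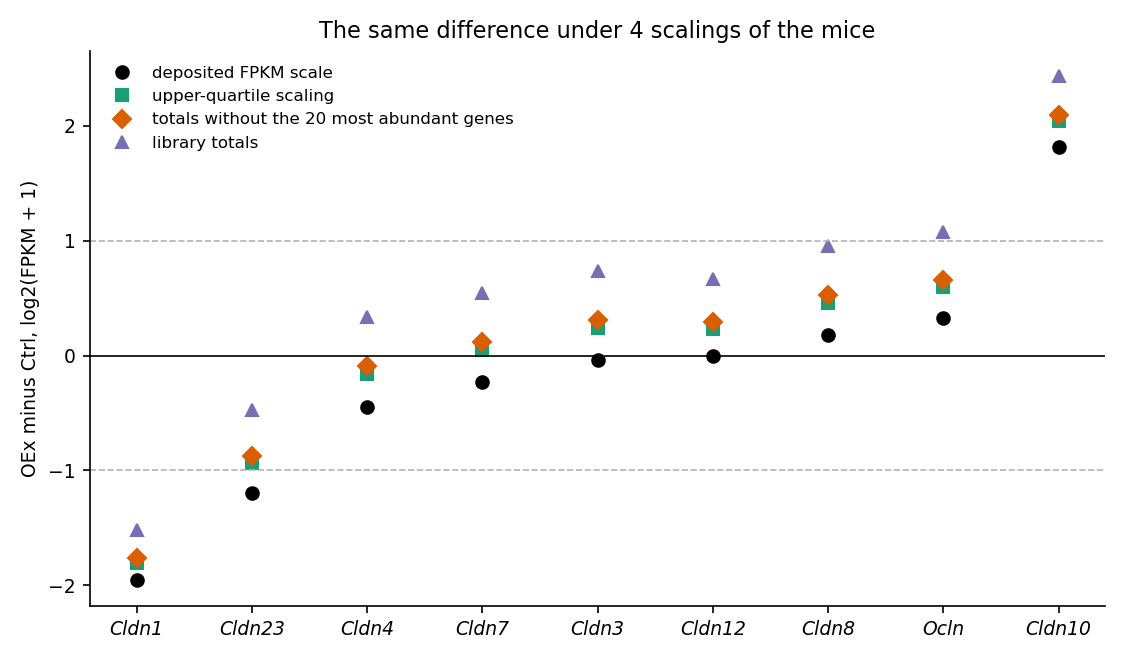
Difference of each tested member between OEx and Ctrl in log2(FPKM + 1) on the deposited scale and after 3 other scalings of the mice; dashed lines mark a 2-fold difference. Every member moves up with the other scalings, Cldn1 and Cldn10 stay beyond the lines, and Cldn3, Cldn4, Cldn7 and Cldn12 cross 0 with at least 1 other scaling.

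As a description that no scaling changes, each claudin was expressed as a percent of the FPKM summed over all claudin rows of a mouse. On the deposited scale this sum was 685, 695 and 711 FPKM in OEx and 821, 817 and 761 FPKM in Ctrl. A share can therefore be higher in OEx where the FPKM of that claudin is not. Cldn3, Cldn4, Cldn7 and Cldn8 together made up 95.8% ± 0.466 in OEx and 94.7% ± 0.654 in Ctrl (SD, n = 3). The share of Cldn4 was 33.8%, 34.2% and 30.6% in OEx and 38.7%, 38.6% and 39.8% in Ctrl. The share of Cldn3 was 35.4%, 37.6% and 35.0% in OEx and 32.5%, 33.4% and 31.2% in Ctrl. So Cldn4 held the largest share in every Ctrl mouse, and Cldn3 in every OEx mouse.

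Among the minor claudins, Cldn23 held 1.15% ± 0.0792 in OEx and 2.46% ± 0.249 in Ctrl. Cldn10 held 1.63% ± 0.481 in OEx and 0.316% ± 0.136 in Ctrl. Cldn1 held 0.0685% ± 0.0417 in OEx and 0.597% ± 0.165 in Ctrl. None of these shares overlapped between the groups. The shares of Cldn3, Cldn4, Cldn8 and Cldn12 did not overlap either, so this does not set Cldn23, Cldn10 and Cldn1 apart. Only the shares of Cldn7 (11.4% ± 1.07 and 11.7% ± 0.498) and of Cldn2, which was near 0, overlapped among the members.

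**Figure D5:**
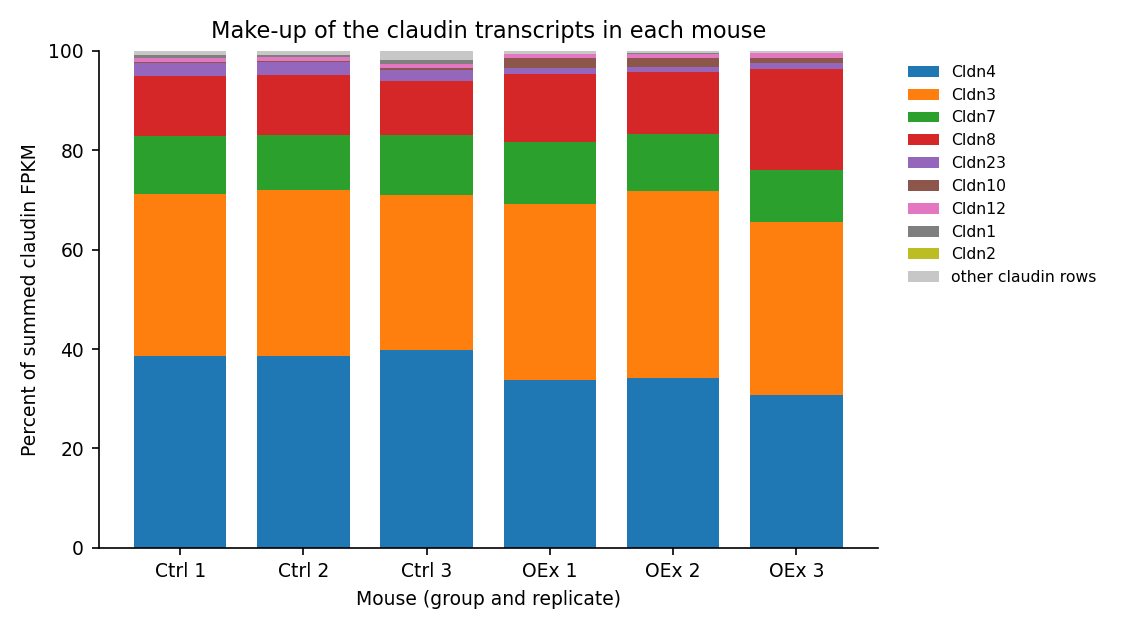
Make-up of the claudin transcripts in each mouse, as the percent of FPKM summed over all claudin rows of that mouse; each bar is 1 mouse and adds to 100. Cldn3 and Cldn4 together fill most of every bar, Cldn4 is the larger in Ctrl and Cldn3 in OEx, and OEx replicate 3 has the largest part of Cldn8 (20.4%).

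Epithelial markers did not move together beside these claudins. Of 5 (Epcam, Cdh1, Krt8, Krt18 and Krt19), 1 was called lower (Krt18), none was called higher, and none was at 0. Their summed level was 1626 to 2063 FPKM in OEx and 1971 to 2279 FPKM in Ctrl. Epcam, the partner of Cldn7, was at 313, 310 and 491 FPKM in OEx and at 297, 295 and 214 FPKM in Ctrl. Of the 5 prostate luminal markers 3 were called lower and 1 higher, with summed levels of 2350 to 5473 FPKM in OEx and 23416 to 23798 FPKM in Ctrl. The part of these cell populations in the claudin differences was not tested.

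Other genes of the tight junction were read from a list of 48 symbols, of which 46 were found and 31 passed the filter. In this list 3 genes were called lower (9.68%, with 15.7% over all genes) and 5 higher (16.1%, with 12.9% over all genes). The median difference was 0.35, against -0.08 over all genes. The genes called higher were Cgnl1, Tjp3, Cxadr, Marveld2 and Prkci, and those called lower were Cldn5, Pard6a and Crb3.

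In the cytoplasmic plaque, 2 of 11 tested genes were called higher and none lower. Cgnl1 encodes paracingulin, a protein of the junctional plaque. It was at 18.1, 19.0 and 24.7 FPKM in OEx and at 3.38, 2.89 and 6.26 FPKM in Ctrl, a log2 difference of 2.10 (SE 0.250, limma FDR 0.000427). Tjp3, a zonula occludens scaffold, was at 25.5, 26.2 and 24.8 FPKM in OEx and at 13.2, 11.7 and 10.4 FPKM in Ctrl, a difference of 1.06 (limma FDR 0.000171). Its call was lost without Ctrl replicate 3 (0.98).

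Tjp1, another zonula occludens scaffold, was not called. It was at 18.9, 19.7 and 24.1 FPKM in OEx and at 13.1, 13.5 and 9.71 FPKM in Ctrl, a difference of 0.75 (limma FDR 0.00469) that went over 2-fold with each of the 3 other scalings (log2 differences of at least 1.009).

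Of the tricellular and MARVEL proteins, 1 of 4 tested genes was called higher. Marveld2 encodes tricellulin, which seals the points where cells meet at their corners and belongs to the protein family of occludin. It was at 18.1, 18.5 and 19.8 FPKM in OEx and at 9.05, 9.27 and 6.44 FPKM in Ctrl, a difference of 1.11 (SE 0.140, limma FDR 0.000536). Without Ctrl replicate 3 it was 0.96, just under 2-fold. All 4 tested genes of this group were higher in every OEx mouse than in any Ctrl mouse, as were 33.4% of all tested genes.

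Of the immunoglobulin-like adhesion proteins, 1 of 6 tested genes was called. Cxadr, the coxsackievirus and adenovirus receptor, was at 10.8, 10.4 and 7.13 FPKM in OEx and at 2.24, 2.85 and 2.68 FPKM in Ctrl, a difference of 1.53 (SE 0.165, limma FDR 0.000287). F11r, which encodes junctional adhesion molecule A, was at 48.0, 47.8 and 47.7 FPKM in OEx and at 67.3, 61.6 and 58.0 FPKM in Ctrl, a difference of -0.37 (limma FDR 0.00697) that was not over 2-fold and turned to 0.40 with library totals.

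The polarity complexes that place the junction gave calls in both directions, 2 lower and 1 higher of 9 tested. Prkci, an atypical protein kinase C, was at 27.2, 27.3 and 34.9 FPKM in OEx and at 13.3, 14.2 and 11.5 FPKM in Ctrl, a difference of 1.13 (limma FDR 0.000383). Pard6a, an adaptor of the same complex, was at 1.58, 1.77 and 1.44 FPKM in OEx and at 5.002, 4.39 and 5.99 FPKM in Ctrl, a difference of -1.23 (limma FDR 0.000233). Crb3, the apical Crumbs protein of epithelia, was at 18.6, 20.5 and 21.2 FPKM in OEx and at 43.6, 44.6 and 49.4 FPKM in Ctrl, a difference of -1.15 (limma FDR 8.94e-05). With library totals, neither Pard6a (-0.66) nor Crb3 (-0.39) was past 2-fold, nor were they with totals without the 20 most abundant genes (-0.98 and -0.81), and Crb3 was not past it with upper quartiles either (-0.88).

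Among the other claudins only Cldn5, the claudin of endothelial junctions, passed the filter. It was at 2.16, 2.62 and 1.37 FPKM in OEx and at 7.11, 6.11 and 13.9 FPKM in Ctrl, a difference of -1.66 (SE 0.304, limma FDR 0.00288), and -1.34 without Ctrl replicate 3, its highest mouse. Of 6 endothelial markers, 1 (Emcn) was called lower and 5 were not called. The groups did not overlap for 5 of the 6, with OEx lower, where 38.9% of all tested genes had that pattern, and none was at 0. Their summed level was 7.89 to 9.05 FPKM in OEx and 20.9 to 27.3 FPKM in Ctrl. The part of vessel content in the difference of Cldn5 was not tested. The other 13 claudins that were found lay under the filter.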

How the data were processed

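The members and the gene lists were chosen with earlier results of these data known. The authors deposited FPKM values, 1 table per sample by gene symbol, from TruSeq libraries sequenced on an Illumina HiSeq system. Their processing notes name CASAVA, HISAT2 2.0.5, featureCounts 1.5.0-p3 and StringTie 1.3.3b. The genome build and annotation are not given in the sources used here. Rows were matched by symbol to GENCODE M21 (GRCm38), and reads were recovered from FPKM and exon length. Of the values under 1000 reads, 96.9% to 97.5% came out whole within 0.05 reads. These reads served for depth and for limma-voom. Floors on read counts cover counting error only, and the 95% intervals of limma reflect the spread between samples.

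log2(FPKM + 1) values of OEx and Ctrl were fitted with limma (version 3.58.1, R version 4.3.3), using a term for group alone, eBayes with an intensity trend, and Benjamini-Hochberg adjustment over all 12833 rows averaging 1 FPKM or more. Calls needed an FDR under 0.05 and a fold change above 2, the criteria of the study. The fit was tested on simulated data. Named genes are all members, every called gene of the wider list, and Tjp1, Tjp3, F11r and Marveld2; 1 further gene named by the rule is not reported here. Symbols Cldn25 and Pals1 were not found (Mpp5 is an older symbol of Pals1), and of 2 Igsf5 rows the one with the higher mean was used. Alternatives were other pseudocounts, filters and scalings, limma-voom, leaving out each mouse, a replicate block, no trend, FDR alone and averaged replicates. Python 3.11.15, scipy 1.17.1 and matplotlib 3.10.9 made the tables and plots.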

Additional observations from a re-analysis of the deposited data

How the results depend on the processing

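Of 143 member values under the alternatives, 123 kept their direction and their call, which joins the FDR and the fold. The FDR alone crossed 0.05 more often. For Cldn4 it rose to 0.403 with totals without the 20 most abundant genes, 0.144 with upper quartiles and 0.0653 with averaged replicates. With library totals it was 0.0255 for Cldn4 in the other direction, and it fell to 0.00225 for Cldn8. Other filters, a replicate block and no trend leave the log2 difference itself unchanged, so the direction could not turn there. Limma-voom kept the denominators of the deposited FPKM. The calls of Cldn1 and Cldn10 were kept wherever they were tested. Members called lower went from 2 to 1 with a mean of at least 5 FPKM, which leaves Cldn1 untested, and to 1 with library totals, with totals without the 20 most abundant genes and with upper quartiles, and to 3 by FDR alone. Members called higher went from 1 to 2 with library totals. Wider-list genes called lower went from 3 to 1 with library totals and 1 with totals without the 20 most abundant genes, and to 7 by FDR alone. Those called higher went from 5 to 17 with library totals, 11 with totals without the 20 most abundant genes, 10 with upper quartiles and 16 by FDR alone, and ran from 3 (without Ctrl replicate 3, where Marveld2 and Tjp3 fell under 2-fold) to 6 when 1 mouse was left out.

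Directions turned with library totals for Cldn3 (0.74, limma FDR 0.000467), Cldn4 (0.34, FDR 0.0255), Cldn7 (0.54, FDR 0.00502) and Cldn12 (0.66, FDR 0.000227). They turned with totals without the 20 most abundant genes for Cldn3 (0.31, FDR 0.0268), Cldn7 (0.11, FDR 0.351) and Cldn12 (0.29, FDR 0.02). With upper quartiles they turned for Cldn3 (0.24, FDR 0.0474), Cldn7 (0.046, FDR 0.691) and Cldn12 (0.23, FDR 0.0381). Leaving out 1 mouse gave -0.049 to 0.33 for Cldn8 and -0.068 to 0.05 for Cldn12, and averaging replicates 1 and 2, chosen after seeing the data, gave 0.043 for Cldn12. The cause of these turns was not tested beyond the shift of the median over all genes. Over all genes, 2021 were called lower and 1653 higher, against 589 and 3923 with library totals, 1188 and 2558 with totals without the 20 most abundant genes, 1326 and 2341 with upper quartiles, 1564 and 681 with a mean of at least 5 FPKM.

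With a replicate block the counts were 2 members lower, 1 higher, 3 wider-list genes lower and 5 higher. Same-numbered mice did not deviate together (correlations of -0.19, -0.19 and -0.31), so the numbers were not taken as pairs. Depth limits Cldn2 and the other claudins with few reads, and at 3 mice per group an exact test cannot go below 0.1.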

Other observations

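A pair of claudins that are hardly expressed in the anterior prostate had reads in the OEx mice only. Cldn17, a claudin known to form anion channels and the neighbour of Cldn8 on chromosome 16 (53850 bases apart), had 8, 6 and 10 reads in OEx and 0, 0 and 0 in Ctrl. Cldn20, a little studied claudin, had 10, 5 and 11 reads in OEx and 0, 0 and 0 in Ctrl. Set against a floor of 3 reads over the Ctrl group, the pooled FPKM of OEx was at least 5.34-fold higher for Cldn17 and at least 5.79-fold higher for Cldn20. Both were chosen after their values were seen, from the 13 found claudins under the filter, and their levels did not exceed 0.473 FPKM and 0.923 FPKM. How many other rows with few reads had them in OEx only was not counted, so the pattern cannot be set against a background. Cldn20 lies within an intron of Tfb1m, whose level was 1.85, 2.27 and 2.27 FPKM in OEx and 3.19, 3.42 and 1.93 FPKM in Ctrl. Whether the counting used strand is not given in the sources used here. Cldn13, Cldn16, Cldn22 and Cldn24 had 0 reads in every mouse. The annotated exon of Cldn22 overlaps that of Wwc2, so a lack of Cldn22 transcripts cannot be read from its 0.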
